A study of Bos taurus with 6 samples.

Results

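The genes that build vesicle coats and carry proteins between the endoplasmic reticulum (ER) and the Golgi were examined in day-7 bovine blastocysts. Members were matched by gene symbol, from a list set with earlier results of these data known. They were the subunits of the COPI, COPII and clathrin coats and of the adaptor complexes AP-1, AP-2 and AP-3. The list also held the SEC61, SEC62 and SEC63 genes of the ER translocon, the SEC22 genes, the TMED genes, the KDEL receptors and RER1. The naming pattern also took in AP1AR and SEC23IP, which bind AP-1 and SEC23 and are not coat subunits. This gave 60 of the 9155 genes with a symbol on the array, measured by 92 of its 24016 probe sets, and each gene was read from its probe set with the highest mean over all arrays. Of the 60 genes, 36 had 1 probe set and 24 had several.

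The superovulated group, 3 arrays, holds blastocysts that stayed until day 7 in superovulated, artificially inseminated Simmental heifers. The synchronized group, also 3 arrays, holds embryos of superovulated, inseminated Simmental heifers as well, but these left the donor as 2-cell embryos on day 2, were placed by endoscope into recipients that had been synchronized without superovulation, and were recovered on day 7. Donor superovulation was thus common to both groups, while flushing and transfer were done only for the synchronized group, so the tract and the handling cannot be told apart. The question was how the tract of a superovulated animal changes transcript abundance in the embryo, and the labels name neither the embryos per array nor separate animals behind the arrays, so p-values cover no more than the variation among these 6 arrays, part of which may be technical.

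Proteins for secretion, for membranes and for the organelles of the secretory pathway enter the ER through the SEC61 channel while they are being made. COPII coats bud vesicles from ER exit sites towards the Golgi, COPI coats bring escaped ER residents and recycled receptors back, and clathrin with its adaptors shapes vesicles at the plasma membrane, the trans-Golgi network and endosomes. In a blastocyst these routes supply the polarized trophectoderm, the outer epithelium that pumps the blastocoel fluid and takes up material from the tract.

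Signals are the authors' GCRMA values on the log2 scale, differences are superovulated minus synchronized on that scale, and genes at or under log2 4 are called near background here and those with a mean above it bright. Arrays varied in how many probe sets exceeded log2 4, with 1457 to 1894 on superovulated arrays, against 973 to 1850 on synchronized ones. Superovulated array 3 and synchronized array 2 had the most in their groups. Of the 15 blastocyst markers looked up, 10 had a probe set. PTGS2 and ATP1B3 were among these 10 though not in the planned marker list, and differed by 1.29 and 1.28. The summed log2 value of the 10 was 44.0 to 45.9 on superovulated arrays, against 30.0 to 34.1 on synchronized arrays. KRT18 and DAB2 passed the test as higher, while KRT8 and SOX2 read near background everywhere. CDX2, NANOG, GATA3, IFNT and TFAP2C were not analysed here. Blood markers (6 measured) exceeded log2 4 on no array. The summed oocyte markers (7 measured) read 22.0 to 27.3 on superovulated and 20.5 to 32.4 on synchronized arrays, and cumulus and granulosa markers (10 measured) 32.3 to 39.5 on superovulated and 32.9 to 42.1 on synchronized arrays, with the highest sum of each group on superovulated array 3 and synchronized array 2 for both lists. Of these, COL1A2 in the cumulus and granulosa list passed as higher, and so did C3 among 7 oviduct and uterus markers, whose sum was 20.6 to 21.2 on superovulated arrays against 18.2 to 19.1 on synchronized ones. C3 alone made up that gap, since 5 of the 7 had differences below 0.

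Of the 60 transport genes 2 passed the test, both higher in blastocysts from superovulated heifers: CLTA, a light chain of clathrin, and RER1, the receptor that returns some membrane proteins from the Golgi to the ER. None passed as lower, but SEC31A, the outer-shell subunit of the COPII coat, had the lowest difference of all members and read below the synchronized arrays on every superovulated array. The test was limma over all probe sets with Benjamini-Hochberg adjustment and a threshold of adjusted p below 0.05, and 9 of the members had an unadjusted p below 0.05 (8 higher, 1 lower), against 918 of all 9155 genes (720 higher, 198 lower). Across all probe sets 0.695% were called higher. Counted by gene, 1.3% of genes were called higher and 0.0218% lower, against 2 of 60 members (3.33%) higher and 0 lower. Among genes with a mean above log2 4 the share called higher was 8.65%, against 2 of the 9 such members (22.2%), too few members to read this as a difference. RER1 and SEC61G averaged under log2 4 in the synchronized group and so reached such a mean through the superovulated arrays.

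Most of the transport genes gave little signal on these arrays, as did most genes. Of the 60 members 41 did not exceed log2 4 on any array, with values between 2.30 and 3.99, and 38 of these 41 differed by less than 0.25 in either direction. Over all 60 members the median difference was -0.01, against -0.02 over all genes, and 27 differences were above 0. The 9 members whose mean exceeded log2 4 differed by a median of 0.44, against 0.65 over the 925 genes with such a mean, and 8 of these 9 differences were above 0, as were 685 of the 925. The median of the bright transport genes thus lay below that of bright genes in general, a difference that was not tested. Members above log2 4 numbered 10, 11 and 15 on superovulated arrays 1 to 3, against 6, 13 and 7 on the same-numbered synchronized arrays. In this bulk RNA, fewer cells of a type and less RNA per cell cannot be told apart.

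**Figure D1:**
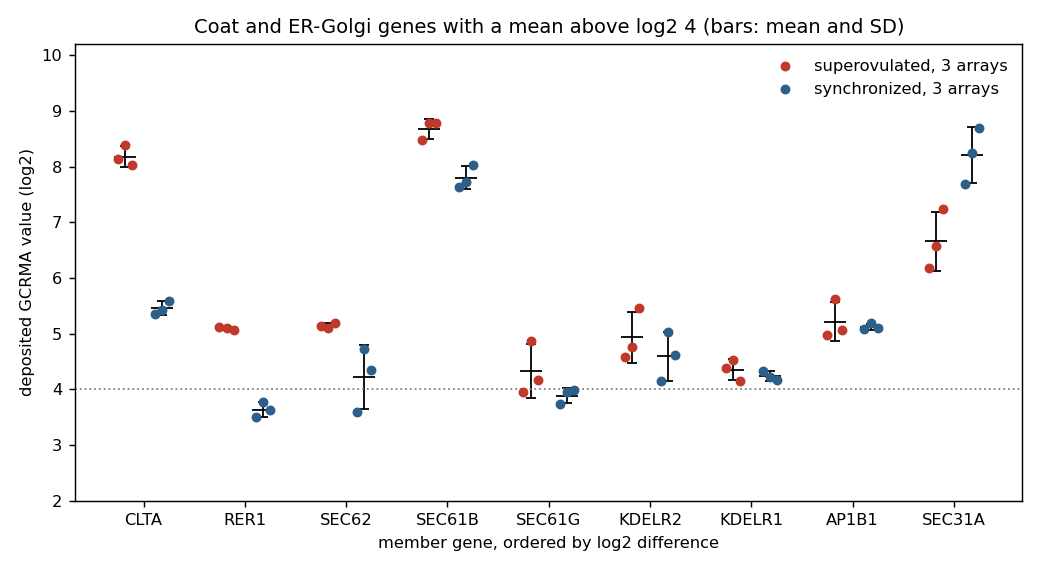
The 9 member genes whose mean exceeded log2 4 run along the horizontal axis, ordered by difference, and the vertical axis is the deposited log2 value; points are single arrays, superovulated left and synchronized right in each pair, and bars are the mean and SD of 3 arrays. CLTA and RER1 show the widest gaps upwards, with superovulated means of 8.18 and 5.09 against synchronized means of 5.46 and 3.63, and SEC31A is the only one of the 9 whose superovulated arrays all lie below the synchronized ones.

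Clathrin is a cage of 3-legged heavy chains (CLTC), each leg carrying a light chain from CLTA or CLTB. CLTA (gene ID 281078, 1 probe set) read 8.13, 8.38 and 8.03 on superovulated arrays 1 to 3, against 5.36, 5.43 and 5.59 on the synchronized arrays. The groups were 2.44 log2 units apart at their nearest arrays, and each was tight, at 8.18 ± 0.18 in the superovulated group and 5.46 ± 0.12 in the synchronized group (SD, n = 3 each). CLTA rose by 2.72 on the log2 scale, with a 95% interval of 2.43 to 3.01, which is 6.59-fold (5.39 to 8.06), at adjusted p = 0.00941 by limma. It ranked 6 by p among all 24016 probe sets, and 37 from the top by difference among the 925 bright genes. The call was lost after a second quantile normalization, where the difference was 1.74 (adjusted p = 0.538), and with superovulated array 3 and synchronized array 2 both left out (2.78, adjusted p = 0.133). Over all probe sets 28 were called in the first of these settings and 1 in the second, against 172 in the main test. Leaving out single arrays kept adjusted p between 0.0241 and 0.0326. With a prior spread that follows signal level (an intensity trend), adjusted p was 0.0542 and the call was also lost, with 50 probe sets called in all.

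Neither of the other clathrin chains passed the test. CLTB, the other light chain, read 3.07, 3.30 and 2.73 on superovulated arrays, against 3.11, 3.06 and 3.07 on synchronized arrays, near background, with a difference of -0.05 and an interval of -0.43 to 0.34. CLTC, the heavy chain, read 3.68, 3.54 and 4.91 on superovulated arrays, against 2.72, 5.32 and 3.01 on synchronized arrays. Its groups overlapped fully, the difference of 0.36 had an interval of -1.79 to 2.51, and a second CLTC probe set differed by -0.07. CLTB and, on 4 of the 6 arrays, CLTC were near background, where GCRMA compresses values, so no size is given for how far the change in CLTA differed from theirs.

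RER1 (gene ID 100125922, 1 probe set) read 5.12, 5.10 and 5.06 on the superovulated arrays, against 3.50, 3.77 and 3.63 on the synchronized arrays. All superovulated arrays lay above log2 4 and all synchronized arrays below it, where GCRMA compresses values, so the size of the change is uncertain. RER1 rose by 1.46 (interval 1.27 to 1.65, adjusted p = 0.0109 by limma), with group values of 5.09 ± 0.03 in superovulated and 3.63 ± 0.14 in synchronized blastocysts (SD, n = 3 each). By p it ranked 13 of 24016, but 253 of 925 bright genes had a difference at least as large, so RER1 stood out by its small spread more than by its size. The call was lost without superovulated array 2 (adjusted p = 0.0544) or synchronized array 3 (0.0536), without superovulated array 3 and synchronized array 2 together (0.108), after a second quantile normalization (0.0772), with the intensity trend (0.0510) and when arrays were centred on the bright probe sets (difference 0.84, adjusted p = 0.128). Over all probe sets 172 were called in the main test. Without superovulated array 2 there were 26, and without synchronized array 3 there were 46. With superovulated array 3 and synchronized array 2 both left out there was 1. The RER1 difference itself stayed between 0.84 and 1.55 in the 13 alternative settings.

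Several blastocyst markers were also higher, 6 of 10 on every superovulated array, against 9.06% of all genes. Among genes with a mean above log2 4 that share was 44.65%, and 3 of the 10 markers had such a mean. The 6 include PTGS2 and ATP1B3, which were not in the planned marker list. KRT18, a keratin of the trophectoderm, read 7.96, 8.11 and 7.74 on superovulated arrays, against 3.55, 3.68 and 4.90 on synchronized arrays. GATA6, DAB2 and POU5F1 differed by 2.12, 2.21 and 0.81, POU5F1 under log2 4 throughout, while KRT8 and SOX2 each differed by -0.01. The blastocyst marker sum did not overlap between the groups. The array's control probe set for the 3′ end of GAPDH read 8.67, 8.80 and 9.14 on superovulated arrays, against 7.20, 8.35 and 8.22 on synchronized arrays, while the one for its 5′ end stayed between 2.60 and 3.03 on all arrays. The control for the 3′ end of EIF4E read 8.16, 8.52 and 8.31 on superovulated and 3.71, 6.23 and 5.92 on synchronized arrays. Of the 7 oviduct and uterus markers only C3, a complement gene, was higher on all superovulated arrays (2.56), while PGR, PAX8, OVGP1, MUC1, ESR1 and LTF differed by -0.21 to 0.01. The part of embryo cell content, tract cells or RNA quality in the CLTA and RER1 values was not tested.

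RER1 and the KDEL receptors work in the same retrieval step, the KDEL receptors binding soluble ER proteins that carry the KDEL tail and handing them to COPI vesicles. KDELR1 read 4.39, 4.52 and 4.15 on superovulated arrays, against 4.33, 4.22 and 4.16 on synchronized arrays, with overlap and a difference of 0.12 (interval -0.16 to 0.40). KDELR2 read 4.59, 4.76 and 5.46 in the superovulated group against 4.15, 5.03 and 4.61 in the synchronized group, a difference of 0.34 (interval -0.51 to 1.19). Both differences turned negative after a second quantile normalization and after centring on bright probe sets, and neither passed in any setting. KDELR3 was near background, at 2.87 in superovulated and 3.06 in synchronized blastocysts. RER1 changed more than KDELR1 by 1.34 and more than KDELR2 by 1.12, without overlap between groups of the within-array differences, though RER1 was near background on the synchronized arrays. The exact permutation test (two-sided) gave p = 0.1 for each, the smallest that 3 against 3 arrays allow, and 0.125 when adjusted over the 5 pairs tested, which were chosen after the values were seen.

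At the ER membrane, the 3 translocon genes with a mean above log2 4 had differences above 0, though none passed over all probe sets. Of all 925 genes with such a mean 685 also had differences above 0. SEC61G, at 3.89 in the synchronized group, reached that mean only through its superovulated arrays. SEC61B, the small beta subunit of the channel, read 8.47, 8.78 and 8.78 on superovulated arrays, against 7.64, 7.72 and 8.03 on synchronized arrays. The groups did not overlap, the difference was 0.88 (interval 0.51 to 1.25, adjusted p = 0.112 by limma), and it passed only when bright probe sets alone were tested (adjusted p = 0.0306). In that setting 29.4% of all bright probe sets were called higher. After a second quantile normalization the SEC61B difference was -0.02, and after centring on bright probe sets 0.26. SEC62, which helps post-translational entry and later ER turnover, read 5.13, 5.11 and 5.20 in the superovulated group and 3.60, 4.73 and 4.34 in the synchronized group. Its superovulated arrays were nearly equal and all above the synchronized ones, with a difference of 0.92 (interval 0.15 to 1.69, adjusted p = 0.586), but its second probe set differed by 0.01 near background. SEC61G, the gamma subunit, read 3.95, 4.87 and 4.16 in the superovulated group against 3.73, 3.95 and 3.98 in the synchronized group, with overlap and a difference of 0.44 that turned to -0.18 after centring on bright probe sets. SEC61B differed by 0.44 more than SEC61G, with overlap (exact permutation p = 0.3, also after adjustment over the 5 pairs). SEC61A1 and SEC61A2, the pore-forming alpha subunits, stayed at 2.76 and 3.40 in superovulated and 2.73 and 3.37 in synchronized blastocysts. SEC63, a partner of SEC62, differed by -0.52 (interval -1.68 to 0.63), with a single reading of 4.31 on synchronized array 2 beside 2.82 and 2.86 on the other synchronized arrays and 2.68 to 2.99 on the superovulated ones.

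SEC31A, which with SEC13 forms the outer cage of the COPII coat, went the other way. SEC31A (gene ID 531964, 1 probe set) read 6.18, 6.57 and 7.23 on superovulated arrays, against 7.69, 8.24 and 8.70 on synchronized arrays. The 2 groups did not overlap, although the nearest arrays were only 0.46 apart. The difference was -1.55 (interval -2.53 to -0.57), with an adjusted p = 0.336 by limma, and ranked 19 from the bottom among the 925 bright genes, of which 240 had a negative difference. It passed when bright probe sets alone were tested (adjusted p = 0.0316), where 441 probe sets were called, 413 of them higher. It also passed when these were centred (difference -2.17, adjusted p = 0.0110), where 258 were called, 208 of them higher. Centring takes 0.62 from every difference, so it makes a negative one larger in size by construction. The difference was -2.51 after a second quantile normalization. It stayed below 0 in all 13 alternative settings, between -2.51 and -1.31, which the lack of overlap fixed for the settings that left out arrays. Its values exceeded log2 4 on all 6 arrays.

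The rest of the COPII coat was near background. SEC13, which also sits in the nuclear pore, read 3.09 to 3.18 on superovulated arrays, against 2.85 to 3.34 on synchronized arrays. SEC23A, which speeds GTP hydrolysis by the SAR1 GTPase, and the cargo-binding subunits SEC24B and SEC24C differed by -0.04, -0.05 and 0.02, SEC31B by -0.02, and SEC23IP by -0.11. Of the 7 COPII genes, SEC31A alone exceeded log2 4 on any array. The SEC22 genes, whose SEC22B product is a SNARE of ER to Golgi vesicles, read near background with differences of -0.18 to 0.02.

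**Figure D2:**
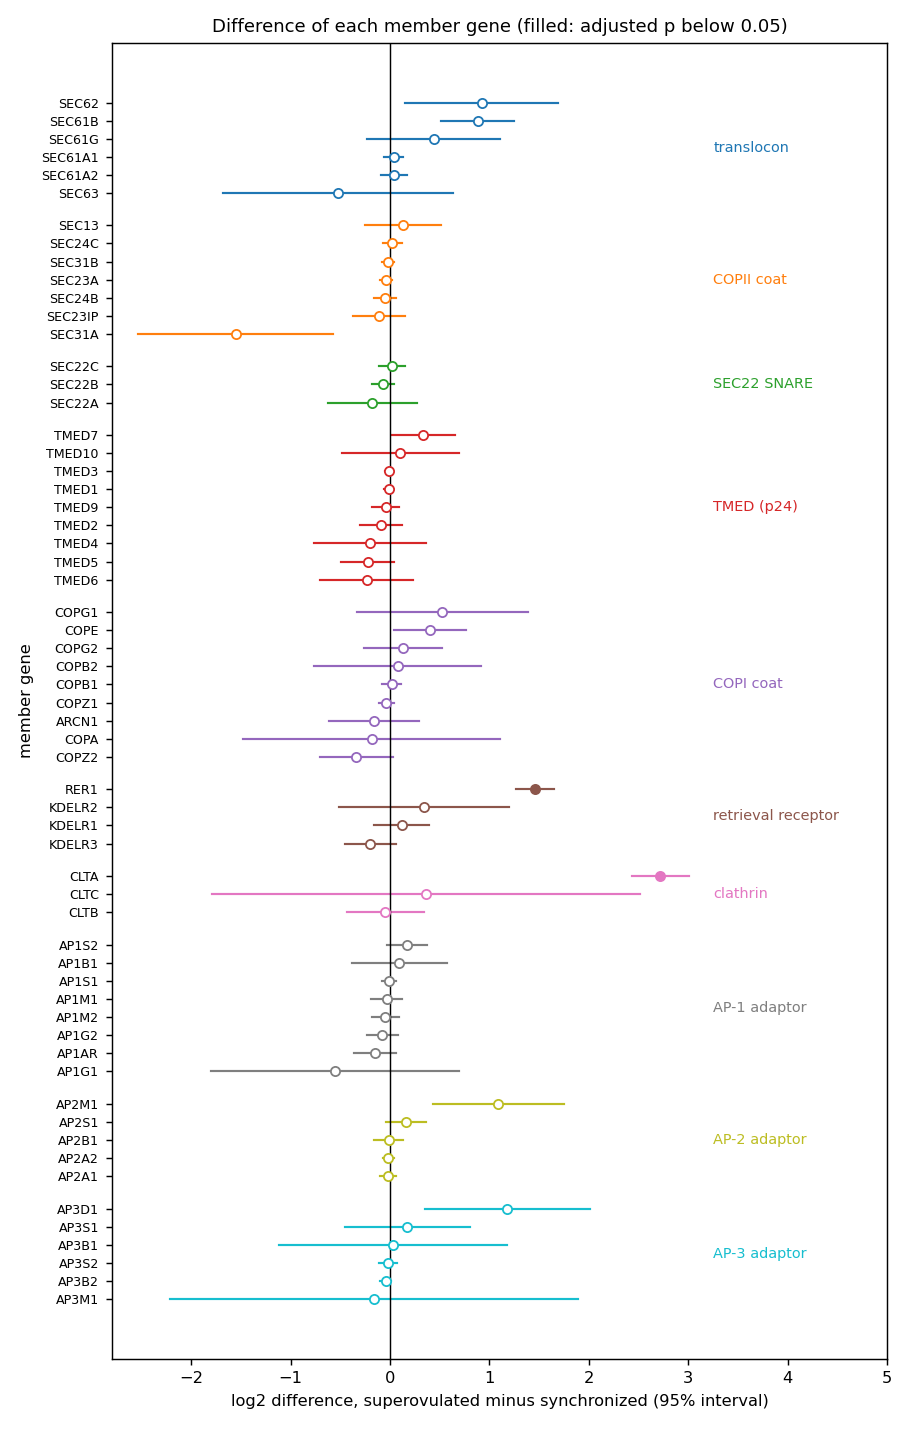
Each of the 60 member genes has a row, grouped by its role, with its log2 difference (superovulated minus synchronized) on the horizontal axis and its 95% interval as a line; filled points passed adjusted p below 0.05. Only CLTA at 2.72 and RER1 at 1.46 are filled, SEC31A at -1.55 lies furthest left, and most other points lie within 0.25 of 0.

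The TMED genes encode p24 proteins, which cycle between ER and Golgi and sort cargo such as GPI-anchored proteins into COPII vesicles. Of the 9 measured, 0 passed in either direction, and differences ranged from -0.23 to 0.34. Below 0 were 7 of the 9, against 5872 of all 9155 genes. TMED7 alone among them reached log2 4 on an array, reading 4.06, 3.88 and 4.06 in the superovulated group against 3.44, 3.85 and 3.70 in the synchronized group, a gap of 0.03 between the nearest arrays. Its difference was 0.34 (interval 0.02 to 0.65, adjusted p = 0.636), and its second probe set differed by -0.10. TMED9 read 3.86 ± 0.06 in superovulated and 3.90 ± 0.08 in synchronized blastocysts (SD, n = 3 each). TMED7 and TMED9 were picked after their values were seen.

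Of the 9 COPI coat genes, 0 passed, and differences ran from -0.34 for COPZ2 to 0.52 for COPG1. COPE, the epsilon subunit, read 3.35, 3.81 and 3.34 on superovulated arrays, against 3.09, 3.07 and 3.14 on synchronized arrays, without overlap but under log2 4 throughout (difference 0.40, interval 0.04 to 0.76, adjusted p = 0.636). COPG1, a gamma subunit, read 2.77, 3.03 and 3.99 on the superovulated arrays and 2.74 on each synchronized array, so its difference lay mostly in superovulated array 3. COPA, the alpha subunit, read 3.45, 3.43 and 4.18 in the superovulated group and 3.39, 4.87 and 3.35 in the synchronized group. The beta and beta-prime subunits COPB1 and COPB2 differed by 0.02 and 0.08, the delta subunit ARCN1 by -0.16, COPG2 by 0.13 and COPZ1 by -0.04. No COPI gene had a mean above log2 4.

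The adaptor complexes link clathrin to cargo and membrane, AP-1 at the trans-Golgi network and endosomes, AP-2 at the plasma membrane and AP-3 on the route to lysosomes. None of their 19 genes passed. AP1B1, the beta subunit of AP-1 and the only adaptor gene with a mean above log2 4, read 4.97, 5.62 and 5.06 in the superovulated group and 5.08, 5.19 and 5.10 in the synchronized group. Its groups overlapped, and the difference of 0.09 turned negative without superovulated array 2 (-0.11), after a second quantile normalization (-0.61) and after centring on bright probe sets (-0.53). AP2M1, the cargo-binding mu subunit of AP-2, read 4.47, 4.80 and 4.35 on superovulated arrays, against 2.95, 3.68 and 3.72 on synchronized arrays. All superovulated arrays were above log2 4 and all synchronized arrays below, with a difference of 1.09 (interval 0.43 to 1.75, adjusted p = 0.296). AP3D1, the delta subunit of AP-3, read 3.28, 4.47 and 3.98 in the superovulated group against 2.83, 2.81 and 2.55 in the synchronized group, also without overlap (difference 1.18, interval 0.35 to 2.01, adjusted p = 0.418). AP2M1 and AP3D1 had 1 probe set each and were named after their values were seen. The other AP-2 genes, AP2A1, AP2A2, AP2B1 and AP2S1, stayed near background with differences of -0.02 to 0.16. The other 6 AP-1 genes besides AP1S2 differed by -0.56 to -0.01, and AP3B2, AP3S1 and AP3S2 by -0.04 to 0.17.

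Groups did not overlap for 16 of the 60 members. In 10 of them (16.7%) the superovulated arrays were higher, against 9.06% of all genes, and in 6 they were lower, against 7.86%. Of the 9 members with a mean above log2 4, 4 (44.4%) were higher, against 413 of 925 such genes (44.65%). Lower was 1 of these 9, against 28 of the 925. Besides CLTA, RER1, SEC61B, SEC62, TMED7, COPE, COPG1, AP2M1 and AP3D1, the higher ones included AP1S2, a sigma subunit of AP-1 at 3.75 to 3.89 in superovulated against 3.49 to 3.74 in synchronized blastocysts. The lower ones besides SEC31A were SEC22B, COPZ2, KDELR3, AP1G1 and AP3B2, and in these 5 the nearest arrays of the 2 groups were 0.01 to 0.08 apart, near background except for AP1G1 at 4.41 on synchronized array 2. SEC31A was thus the only lower member of these 6 with a signal on every array.

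A different pattern ran across the groups. In 12 of the 60 members the highest 2 arrays were superovulated array 3 and synchronized array 2, against 961 of all 9155 genes. Among members that exceeded log2 4 on some array it was 6 of 19 (31.6%), against 34.1% of such genes, so the share was close to that of other genes with a signal. CLTC showed it, with 4.91 on superovulated array 3 and 5.32 on synchronized array 2 beside 2.72 to 3.68 on the others. AP3M1, the mu subunit of AP-3, read 3.22, 3.20 and 4.89 on superovulated arrays, against 3.11, 5.30 and 3.38 on synchronized arrays, and its probe set is of a type that can match more than 1 transcript. AP3B1 read 3.19, 3.18 and 3.76 in the superovulated group against 2.87, 4.26 and 2.91 in the synchronized group. KDELR2, COPA and COPB2 were the other 3 of the 6. The same arrays had the highest sums of oocyte and of cumulus markers. The zona pellucida gene ZP4 read 4.15 on superovulated array 3 and 5.35 on synchronized array 2 beside 2.67 to 2.76 elsewhere. ZP2, KPNA7, TNFAIP6, PTX3, INHA and INHBA were also highest on these arrays. The markers ZP3, GDF9, BMP15, COL1A2, FSHR and CYP19A1 were not, so the sums rest on part of each list. The part of such cells or RNA in this pattern was not tested.

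**Figure D3:**
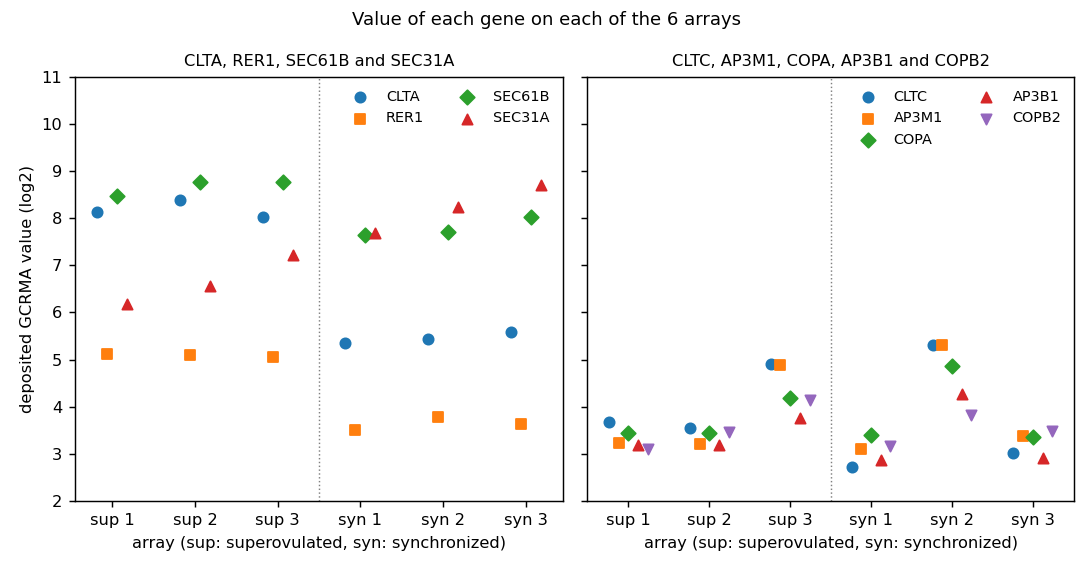
Each panel gives the deposited log2 value (vertical axis) of single genes on superovulated arrays 1 to 3 (sup) and synchronized arrays 1 to 3 (syn). In the first panel CLTA, RER1 and SEC61B are higher and SEC31A lower on every superovulated array; in the second, CLTC, AP3M1, COPA, AP3B1 and COPB2 are highest on superovulated array 3 and synchronized array 2, so the groups overlap.

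Partner genes of the same routes were read from 6 lists. Of 108 partner genes measured, 0 passed in limma in either direction, 11 had an unadjusted p below 0.05 (10 higher, 1 lower), a share close to the 918 of 9155 over all genes, and the median difference was -0.01. The ER translocation list had the highest median of the 6, with 14 of 17 differences above 0 and a median of 0.24, and 9 of its genes had a mean above log2 4. Over all genes 35.9% of differences were above 0, and over genes with a mean above log2 4 it was 685 of 925. SRP19, a protein of the signal recognition particle that brings ribosomes to the ER, read 6.90, 6.94 and 7.23 on superovulated arrays, against 4.77, 6.01 and 6.11 on synchronized arrays (difference 1.39, adjusted p = 0.467). SRP72, of the same particle, read 5.81, 6.34 and 5.78 in the superovulated group against 3.21, 4.95 and 4.49 in the synchronized group (1.76, adjusted p = 0.450). SRP68, its binding partner, differed by 0.32 near background (adjusted p = 0.174). When bright probe sets alone were tested, SRP19, SRP72 and PICALM passed, out of 21 partner genes with a mean above log2 4. In that setting 29.4% of all bright probe sets were called higher. PICALM averaged 3.48 in the synchronized group and reached a mean above log2 4 only through its superovulated values.

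Among 20 clathrin accessory genes PICALM, an adaptor that recruits clathrin to the plasma membrane, read 5.22, 5.49 and 5.21 on superovulated arrays, against 2.95, 4.35 and 3.13 on synchronized arrays. The groups did not overlap, and the difference was 1.83 (interval 0.79 to 2.87, adjusted p = 0.257). AFTPH, a partner of AP-1, differed by 0.66 (adjusted p = 0.382) and DNAJC6, the uncoating cochaperone auxilin, by -0.08, both near background. The list median was -0.04.

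Among 20 COPII regulators and cargo receptors the smallest p-values belonged to PREB, the exchange factor that activates SAR1 (0.64, adjusted p = 0.130), MIA3, which helps load collagen at ER exit sites (0.52, adjusted p = 0.158), and SAR1A, the GTPase that starts COPII assembly (0.64, adjusted p = 0.636). MIA3 read 4.32, 4.48 and 4.14 on superovulated arrays, against 3.73, 3.80 and 3.86 on synchronized arrays. SAR1A read 4.38, 4.09 and 4.20 on superovulated arrays, against 3.81, 3.81 and 3.13 on synchronized ones. These 3 were picked for their smallest p. PREB and SAR1A had means under log2 4 (3.35 and 3.90), and MIA3 averaged 3.80 in the synchronized group. In the list as a whole 4 of 20 genes were higher on every superovulated array, against 9.06% of all genes. Among genes with a mean above log2 4 that share was 44.65%, and 5 of the 20 had such a mean. Above 0 were 10 of its 20 differences, against 35.9% over all genes, and the list median was 0.

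COPI regulators (8 measured) all had differences below 0, with a median of -0.06, while 5872 of all 9155 genes also lay below 0. Of the 8, 1 exceeded log2 4 on any array. Among genes that did so on no array, 5184 of 7397 differences were below 0. Near background lay ARFGAP1, the GTPase activator of COPI vesicles, and ARF1, the GTPase that recruits the coat, both at -0.04. ARF4, a related GTPase and the only bright one, read 3.46, 4.69 and 7.68 on superovulated arrays, against 5.27, 9.44 and 6.98 on synchronized arrays. Its SD, 2.17 in the superovulated and 2.10 in the synchronized group (n = 3 each), exceeded the difference of -1.95 (interval -5.98 to 2.08), and its highest arrays were again superovulated array 3 and synchronized array 2. In the list of 31 SNAREs and tethers, where vesicles dock and fuse, 9 differences (29.0%) were above 0, against 35.9% over all genes, and the median was -0.05. USE1 differed by 0.75, TRAPPC1 by -0.29 and GORASP1 by -0.10, each with adjusted p = 0.636. In the list of 12 unfolded-protein sensors and ER chaperones, CANX, the lectin chaperone calnexin, read 9.30, 9.15 and 9.17 on superovulated arrays, against 7.32, 8.09 and 8.67 on synchronized arrays (1.18, adjusted p = 0.523). PDIA3, its disulfide isomerase partner, differed by 0.76 (adjusted p = 0.452) and the sensor ATF6B by 0.16 (adjusted p = 0.636). The list median was 0.03.

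**Figure D4:**
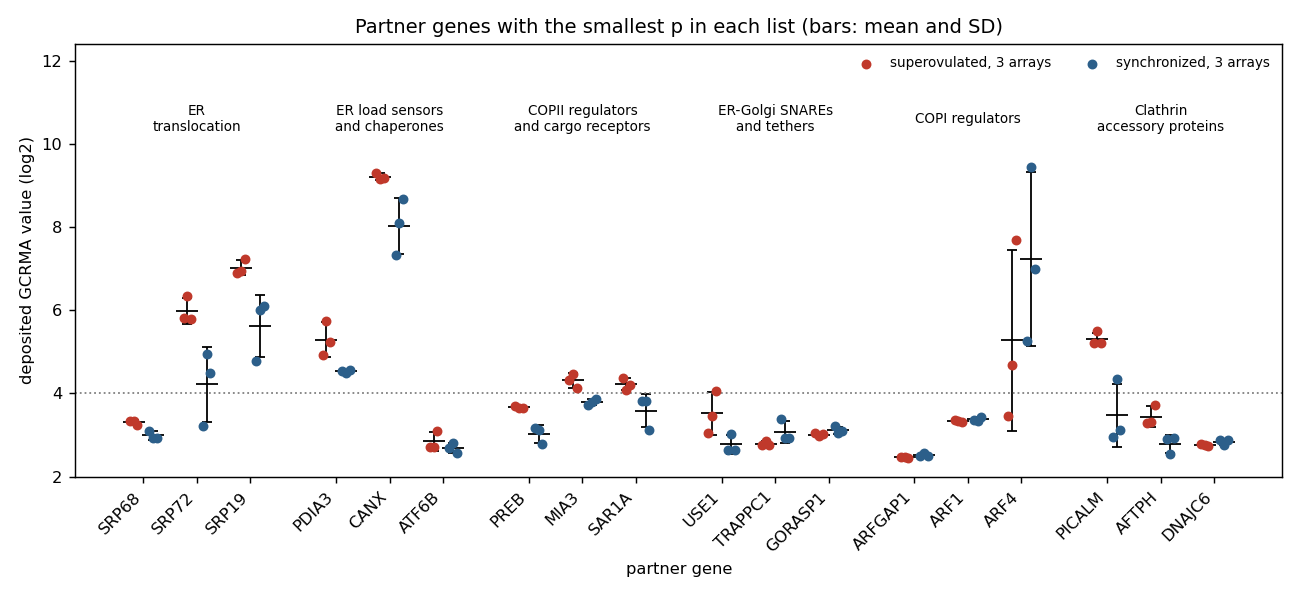
The 3 partner genes with the smallest p in each of 6 lists are given along the horizontal axis and the deposited log2 value on the vertical axis; points are single arrays, superovulated left and synchronized right, and bars are the mean and SD of 3 arrays. PICALM, SRP72, SRP19 and CANX show superovulated arrays above all synchronized ones, while ARF4 spreads from 3.46 to 9.44 with overlap, and none of the 18 genes passed the test.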

How the data were processed

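Blastocyst RNA was amplified, biotin-labelled in the second in vitro transcription and hybridized to the Affymetrix GeneChip Bovine Genome Array, 1 sample per array, per the labels' protocols. The deposited values, on the log2 scale, were made with GCRMA per the submitters' processing notes; its version, and whether the 6 arrays were normalized together, are not given in the sources used here. GCRMA compresses low values, so folds that start near background are uncertain. Gene symbols came from GEO's platform annotation; the 92 member probe sets matched the ARS-UCD2.0 gene table by gene identifier with 0 symbols changed. No coordinates or sequences were used here.

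The 112 control probe sets were set aside and 24016 tested by limma (version 3.58.1, under R 4.3.3; lmFit, then eBayes, with group as the only term, superovulated minus synchronized, two-sided), with Benjamini-Hochberg adjustment over all of them. Within-array pairs used exact permutation tests (SciPy 1.17.1). With 3 arrays per group, array number limits the precision. The procedure was tested on simulated data. Members, lists and most settings were chosen with earlier results of these data known. Values per array are given for members with a call, with a mean above log2 4, or with the lowest difference; other members with array values were named after these were seen, as were the within-array pairs. From each partner list the 3 genes with the smallest p are named. Alternatives were a second quantile normalization, centring, a filter on dim probe sets, an intensity trend, the replicate number as a block, arrays left out, and averaged probe sets.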

Additional observations from a re-analysis of the deposited data

Results flagged for a closer look

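A pair of control probe sets, which the group comparison leaves aside, carried a signal that was higher on all superovulated arrays than on any synchronized array. Among 18 control probe sets for bovine housekeeping genes, the one for the 3′ end of EIF4E averaged 8.33 ± 0.18 in the superovulated and 5.29 ± 1.37 in the synchronized group (SD, n = 3 each), a difference of 3.04. The one for the 3′ end of GAPDH averaged 8.87 ± 0.24 in the superovulated and 7.92 ± 0.63 in the synchronized group, a difference of 0.95. All 18 lie outside the measurement that the comparison uses. The pair was picked from the bright ones among them for being higher on all superovulated arrays. The lack of overlap was thus set by this choice and is not a separate result. Control probe sets that were lower on all superovulated arrays were not looked for. Groups of 3 arrays were too small to be screened for single arrays far from the others.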

How the results depend on the processing

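CLTA and RER1 were the members called higher with all arrays. No member was called higher after a second quantile normalization (0), with an intensity trend (0), with superovulated array 3 and synchronized array 2 left out (0) or with the replicate block (0). Over all probe sets these settings called 28, 50, 1 and 0 in that order, against 172 in the main test. Members called higher numbered 1 when arrays were centred on bright probe sets and 3 (CLTA, RER1 and SEC61B) when bright probe sets alone were tested. The shares of all bright probe sets called higher were 14.8% and 29.4%. Without single arrays 1 to 2 members were called higher. The intensity trend gave adjusted p = 0.0542 for CLTA and 0.0510 for RER1. Members called lower numbered 1 (SEC31A) when bright probe sets alone were tested and 1 when these were centred, against 0 otherwise. Partner genes called numbered 3 among bright probe sets, 1 after centring on them and 0 to 1 without single arrays. The median difference of members was -0.01 with all arrays, 0.000417 after a second quantile normalization, 0.0117 after centring on the median of all probe sets, 0.44 among bright probe sets, -0.18 when these were centred, 0.00333 against synchronized array 2 alone, and -0.0292 to 0.01 without single arrays. Centring on bright probe sets takes 0.62 from every difference. Reversed differences were those of KDELR1 (-0.29), KDELR2 (-0.10), SEC61B (-0.0178) and AP1B1 (-0.61) after a second quantile normalization, of KDELR1 (-0.51), KDELR2 (-0.28), SEC61G (-0.18) and AP1B1 (-0.53) after centring on bright probe sets, and of AP1B1 without superovulated array 2 (-0.11 to 0.22 without single arrays). The cause of these changes was not tested. Of 117 alternative values of the 9 members named by rule, 94 kept direction and side of the threshold, 11 lost a call, 3 gained one and 9 reversed, 4 of them by the centring that lowers every difference alike and so turns any positive one under 0.62.

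Whether equal replicate numbers pair the arrays was not settled. Deviations of bright probe sets from the group mean correlated at 0.60, -0.54 and -0.44 for numbers 1, 2 and 3. Between superovulated array 3 and synchronized array 2 they correlated at 0.74. Deviations of 3 arrays from their own mean sum to 0, so these correlations cannot exclude pairing. With the replicate block 0 probe sets were called in all, and CLTA and RER1 had adjusted p = 0.114. Most members were near background, where GCRMA compresses values and differences may be understated; 14 genes that exceeded log2 4 on no array were called higher all the same, none of them a member.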
